A study of Mus musculus with 6 samples.

Results

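Mitotic spindle and kinetochore genes were followed in mouse bone marrow derived macrophages induced over 7 days by CSF1, also called M-CSF, or by CSF2, also called GM-CSF. The groups are termed M(CSF1) and M(CSF2) cells. The list held 53 genes that build, move or police the mitotic apparatus, chosen by gene symbol with earlier results of these data known. Of these, 52 had a probe set on the Affymetrix Mouse Gene 1.0 ST array that the platform annotation assigned to that gene alone, and each had only 1 such probe set. Ccnb1 had none and was not analysed here. The 52 belong to 19938 genes tested. Each group had 3 arrays, which the labels call biological replicates. All cells came from C57BL/6 marrow, and both groups were sorted and put in Trizol within a few hours. The labels do not say whether replicates came from separate mice, and the p-values therefore cover only the spread among these arrays, which may be technical. Age and sex of the mice, the doses of the factors and the sorting marker are not given in the sources used here.

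CSF1 and CSF2 are growth factors on which marrow precursors live, divide and mature into macrophage-like cells. A cell that divides makes cyclin A and cyclin B partners for the kinase CDK1, condenses its chromosomes, attaches them through kinetochores to spindle microtubules and separates them once the spindle checkpoint is satisfied. Most genes of this machinery are transcribed late in the cycle and are low in resting cells, so their transcripts are widely read as a sign of how many cells in a culture are cycling. In the repressed state they are held by the DREAM complex, and B-MYB and FOXM1 drive them later in the cycle, largely through a promoter element called the CHR and neighbouring CCAAT boxes bound by NF-Y.

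Nearly the whole list was lower in M(CSF2) cells. Of the 52 measured genes, 49 (94.2%) were called lower and 0 higher, against 15.6% of all genes called lower and 11.9% called higher. A gene was called at a limma adjusted p under 0.05 over all 19938 genes, and none of the 52 was higher at an unadjusted p under 0.05 either. The median difference over the list was -1.66 on the log2 scale, beside 0.04 over all genes. In 50 of the 52 genes all 3 M(CSF2) arrays lay below all 3 M(CSF1) arrays, which was so for 19.8% of all genes. The difference was at least 2-fold for 39 called members, against 4.42% of all genes. In bulk RNA, fewer dividing cells and less mitotic RNA per dividing cell cannot be told apart.

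Several members were dim in M(CSF2), which limits what a fold can say. The 95th percentile of 1027 olfactory receptor genes, at 3.36 on the log2 scale, served as a floor, since the table holds no detection calls. For 16 members all 3 M(CSF2) arrays lay at or below it, and for 2 of these, Cenpk and Kif18a, the M(CSF1) arrays did too. Where only M(CSF2) was at the floor, the fold is given as at least the step from the M(CSF1) mean down to the floor. Counted in that way, 33 called members were at least 2-fold lower, against 4.33% of all genes, and 15 were at least 4-fold lower, against 1.11% of all genes. The list's median was then -1.53. For Nuf2, Nek2 and Ndc80 the M(CSF2) means (3.32, 3.33 and 3.32) lay below the floor, but not every array did. Their differences are given without a bound.

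**Figure D1:**
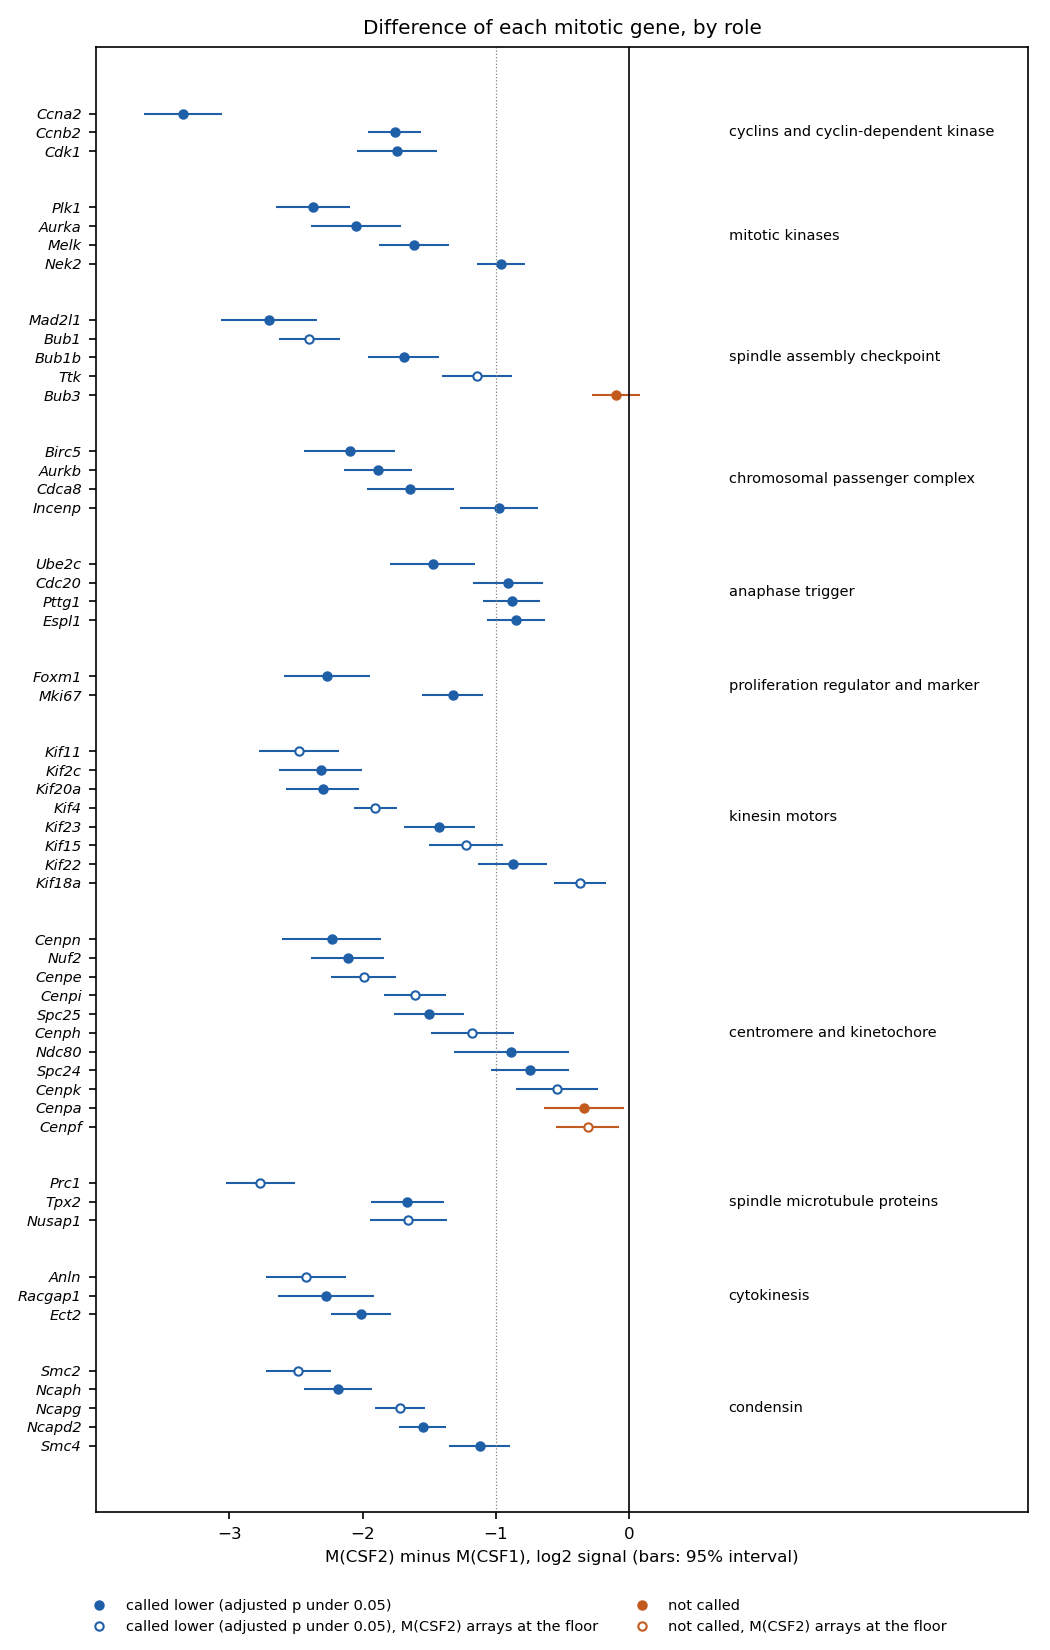
M(CSF2) minus M(CSF1) difference in log2 signal for each of the 52 measured genes, grouped by role, with 95% intervals from limma (3 arrays a group). Blue points were called lower and orange points (Bub3, Cenpa, Cenpf) were not called; open points mark genes whose M(CSF2) arrays all lay at the floor of 3.36. The dotted line marks a 2-fold fall, and every point lies left of 0.

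Because the members moved together, their promoters were searched for the elements known from this gene class. RefSeq promoter windows (assembly GRCm38.p6, 250 bases before to 50 bases after a start site) were found for 45 members, Ccnb1 included, 4 of them with more than 1 window, which made 50 windows. The motifs were the CCAAT box (CCAAT), the CHR (TTTGAA or TTTAAA) and the E2F site (TTCCCGC, TTTGGCGC or TTTCGCGC), each on both strands. In 1 member window a CCAAT box and a CHR shared bases. A CHR was present in 72.0% of the members' windows, against 27.6% of all 32851 windows in the table. A CCAAT box was present in 76.0%, against 37.4%, and both together in 62.0%, against 10.7%. A CHR within 50 bases of the start, a measure chosen after the matches were seen, was present in 62.0% of the members' windows and 8.3% of all. The E2F site was present in 16.0% of the members' windows and 5.3% of all. The median share of G and C bases was 58.8% in the members' windows and 52.7% in all. It was 57.3% in the 19177 windows of genes tested. In those windows a CHR was present in 23.7%, a CCAAT box in 37.4%, both in 9.3% and the E2F site in 7.4%. Among 49 windows of DNA replication genes these shares were 26.5% for the CHR, 51.0% for the CCAAT box, 12.2% for both and 44.9% for the E2F site. A match is a description of letters and does not show that a factor binds there.

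The windows below belong to the 3 called members with the largest differences whose window holds both elements (Prc1, Smc2 and Kif11) and to the 3 members that were not called (Cenpa, Cenpf and Bub3). They are read 5′ to 3′ on the strand of the gene, with CHR and CCAAT letters, in either orientation, in capitals. Their positions are chr7:80294201-80294500 (plus strand) for Prc1, chr4:52438971-52439270 (plus) for Smc2, chr19:37376132-37376431 (plus) for Kif11, chr5:30666636-30666935 (plus) for Cenpa, chr1:189688037-189688336 (minus) for Cenpf and chr7:131560120-131560419 (plus) for Bub3. Prc1 and Bub3 each have 2 windows in the table, of which 1 is shown.
Prc1: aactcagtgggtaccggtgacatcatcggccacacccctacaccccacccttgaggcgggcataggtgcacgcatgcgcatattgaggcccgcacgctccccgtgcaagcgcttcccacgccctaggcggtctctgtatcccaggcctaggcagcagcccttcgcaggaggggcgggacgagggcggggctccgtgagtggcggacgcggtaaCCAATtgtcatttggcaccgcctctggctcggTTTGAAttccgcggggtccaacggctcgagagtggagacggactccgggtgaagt
Smc2: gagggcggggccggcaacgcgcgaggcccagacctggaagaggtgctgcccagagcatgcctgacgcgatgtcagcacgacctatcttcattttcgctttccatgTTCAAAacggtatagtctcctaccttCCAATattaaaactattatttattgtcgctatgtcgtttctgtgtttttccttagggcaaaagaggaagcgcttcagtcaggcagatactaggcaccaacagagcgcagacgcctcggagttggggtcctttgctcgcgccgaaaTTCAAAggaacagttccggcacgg
Kif11: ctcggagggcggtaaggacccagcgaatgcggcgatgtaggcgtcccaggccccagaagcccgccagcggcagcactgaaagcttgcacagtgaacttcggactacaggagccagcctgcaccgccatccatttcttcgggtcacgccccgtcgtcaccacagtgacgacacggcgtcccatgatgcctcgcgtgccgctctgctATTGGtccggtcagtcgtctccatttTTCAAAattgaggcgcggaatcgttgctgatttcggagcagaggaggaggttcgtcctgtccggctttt
Cenpa: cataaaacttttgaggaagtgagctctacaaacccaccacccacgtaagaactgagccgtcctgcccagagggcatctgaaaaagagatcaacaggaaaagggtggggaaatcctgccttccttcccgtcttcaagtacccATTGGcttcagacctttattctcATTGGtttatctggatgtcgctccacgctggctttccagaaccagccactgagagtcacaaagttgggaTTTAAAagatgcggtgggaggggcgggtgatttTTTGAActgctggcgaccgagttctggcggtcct
Cenpf: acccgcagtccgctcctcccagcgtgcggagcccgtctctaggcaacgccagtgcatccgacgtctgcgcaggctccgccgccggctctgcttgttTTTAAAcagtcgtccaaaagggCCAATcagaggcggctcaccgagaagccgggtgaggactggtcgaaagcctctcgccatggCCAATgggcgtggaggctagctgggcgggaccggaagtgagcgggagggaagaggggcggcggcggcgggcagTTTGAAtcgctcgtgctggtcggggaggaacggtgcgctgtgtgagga
Bub3: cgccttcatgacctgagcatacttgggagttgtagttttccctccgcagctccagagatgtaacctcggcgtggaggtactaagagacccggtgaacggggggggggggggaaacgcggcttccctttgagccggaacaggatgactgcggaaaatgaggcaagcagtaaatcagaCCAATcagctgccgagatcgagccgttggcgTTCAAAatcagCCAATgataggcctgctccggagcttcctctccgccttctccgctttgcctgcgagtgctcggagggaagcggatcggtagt
All 6 windows hold a CHR and at least 1 CCAAT box. In Prc1 the CCAAT box begins 37 bases and the CHR 5 bases before the start. In Kif11 they begin 45 and 19 bases before it, in the reverse orientation. The 3 called genes were chosen for holding both elements, so these 6 windows cannot compare called genes with genes not called. Of the 45 members with a window, 28 held both elements in 1 window. Some called members, such as Mad2l1, Ncaph and Nuf2, held neither. Whether the elements act in these cells was not tested.

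Cyclins and their kinase come at the head of the pathway. Ccna2, whose cyclin serves in S phase and in the entry to mitosis, had the largest difference of the list. Its M(CSF1) arrays read 7.13, 7.35 and 7.44 and its M(CSF2) arrays 4.16, 3.97 and 3.75 on the log2 scale. The groups lay far apart, and the fall of 3.35 (SE 0.13, adjusted p = 1.76e-06) makes M(CSF2) 10.2-fold lower (95% interval 8.32 to 12.5). Ccnb2, a B-type cyclin, fell by 1.76, from 6.35, 6.47 and 6.23 to 4.53, 4.67 and 4.57. Cdk1, the kinase that both cyclins activate, read 7.22, 7.61 and 7.25 in M(CSF1) and 5.78, 5.61 and 5.47 in M(CSF2). This is a 3.35-fold fall (95% interval 2.71 to 4.12, adjusted p = 4.27e-05), and its transcript remained above the floor in every array.

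The regulators that switch this programme on, and the marker by which it is usually scored, fell with it. Foxm1, a transcription factor for late cell cycle genes, went from 5.75, 5.90 and 5.94 to 3.61, 3.87 and 3.31, a 4.83-fold fall (95% interval 3.86 to 6.04, adjusted p = 1.51e-05). Mki67, which encodes the Ki-67 protein that coats mitotic chromosomes, went from 7.50, 7.56 and 7.38 to 6.29, 6.20 and 5.98. Its fall was 1.32 (SE 0.10, adjusted p = 4.36e-05), 2.50-fold, and 34 other members had larger raw differences. Some of those were at the floor in M(CSF2) with smaller bounds, such as Ncapg (at least 1.95-fold) and Cenpi (at least 1.59-fold). The M(CSF2) level of Mki67 stayed well above the floor.

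All 4 mitotic kinases of the list fell. Plk1, which drives mitotic entry and centrosome maturation, went from 7.20, 7.03 and 7.00 to 4.48, 4.92 and 4.71, a 5.18-fold fall (95% interval 4.26 to 6.29, adjusted p = 6.25e-06). Aurka, the Aurora kinase of the spindle poles, went from 6.37, 6.52 and 6.41 to 4.32, 4.71 and 4.12, a fall of 2.05. Every M(CSF1) array was above every M(CSF2) array for both kinases. Melk, a kinase made mainly by dividing cells, fell by 1.61, and Nek2, which helps to part the centrosomes, fell by 0.96.

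The spindle assembly checkpoint, which holds back anaphase until every kinetochore is attached, gave the widest range. Mad2l1, whose protein MAD2 carries the waiting signal, went from 7.37, 7.75 and 7.81 to 4.69, 5.17 and 4.96, a 6.50-fold fall (95% interval 5.06 to 8.34, adjusted p = 1.12e-05). Bub1, a checkpoint kinase at the kinetochore, went from 4.88, 5.19 and 4.94 to 2.62, 2.66 and 2.52. With M(CSF2) at the floor it was at least 3.13-fold lower (adjusted p = 2.33e-06). Bub1b, which encodes the APC/C inhibitor BUBR1, fell by 1.69, and the kinase gene Ttk (MPS1) fell by 1.14, at least 1.70-fold with the floor taken into account. Bub3, the adaptor that brings BUB1 and BUBR1 to kinetochores, differed from these partners in its values. It read 8.51, 8.51 and 8.33 in M(CSF1) and 8.30, 8.41 and 8.34 in M(CSF2), and the groups overlapped. Its difference was -0.10 with a 95% interval of -0.28 to 0.09 (adjusted p = 0.433), which leaves no room for a 2-fold change, while the intervals of the other 4 checkpoint genes ended at -0.88 or below.

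The chromosomal passenger complex corrects faulty attachments and later works in cytokinesis, and all 4 of its genes fell. Its kinase Aurkb went from 6.89, 7.19 and 7.12 to 5.31, 5.22 and 5.02, a 3.69-fold fall (95% interval 3.09 to 4.40, adjusted p = 1.18e-05). Birc5, which encodes survivin, fell by 2.10, from 5.81, 5.91 and 5.59 to 3.39, 3.93 and 3.69. Cdca8 (borealin) fell by 1.64. Incenp, the scaffold that holds the others, fell least, by 0.98 from a mean of 7.21 ± 0.18 to 6.23 ± 0.18 (SD, n = 3 arrays each, adjusted p = 0.000723).

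The genes that trigger anaphase fell by smaller amounts, with a median of -0.89 over 4. Ube2c, the ubiquitin-conjugating enzyme of the anaphase-promoting complex (APC/C), went from 6.58, 6.61 and 6.11 to 4.95, 5.03 and 4.90, a fall of 1.47 (SE 0.14, adjusted p = 0.000131). Cdc20, the activator of APC/C in mitosis, fell by 0.91, from 4.66, 5.01 and 4.72 to 3.90, 4.01 and 3.76. Securin and separase are the inhibitor and the protease that cuts cohesin. Their genes Pttg1 (-0.88) and Espl1 (-0.85) fell, and in neither did the groups overlap.

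The 8 mitotic kinesins, motors that push, pull or shorten spindle microtubules, were all called lower. Kif11 (Eg5), which pushes the spindle poles apart, went from 5.20, 5.44 and 5.09 to 2.74, 2.98 and 2.58, at least 3.69-fold lower (adjusted p = 6.99e-06). Kif2c, a microtubule depolymerase at centromeres, fell by 2.31, from 6.34, 6.56 and 6.12 to 4.11, 4.14 and 3.83. Kif20a and Kif23, motors of the spindle midzone, fell, with differences of -2.30 and -1.42. Kif4, which acts on chromosome arms and the midzone, read 4.52, 4.57 and 4.55 against 2.63, 2.58 and 2.72 and was at least 2.28-fold lower (adjusted p = 1.49e-06). Kif15, which can stand in for Kif11, was at least 1.79-fold lower. Kif22, a chromosome-arm motor, fell by 0.87. Kif18a, which damps chromosome movements, was at the floor in both groups, so its called difference of -0.37 (adjusted p = 0.0144) gives no fold, and without M(CSF1) replicate 2 the call ended (-0.34, adjusted p = 0.0657).

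As a comparison within the same protein family, 27 other kinesin genes were taken, most of them genes of transport motors and their light chains. The list also holds Kif2a, a microtubule depolymerase of the same family as Kif2c that also acts at spindle poles. Of the 27, 6 (22.2%) were called lower, 3 higher and 18 were not called, with a median of 0.04. Over all genes, 15.6% were called lower and 11.9% higher. Without Kif2a, a choice made after the values were seen, 5 of 26 were called lower. The falls were led by Kif3c (-1.58), Kif5b (-1.12) and Kif2a (-0.73), and the rises were Klc4 (0.80), Kif1c (0.76) and Kif9 (0.43). The mitotic kinesins had a median of -1.66 and 8 of 8 called lower.

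The centromere and kinetochore genes were the largest role, with 9 of 11 called lower and a median of -1.18. The 4 genes of the NDC80 complex, the rod that grips microtubule ends, all fell but by unequal amounts. Nuf2 went from 5.38, 5.59 and 5.31 to 3.30, 3.51 and 3.14 (a fall of 2.11, adjusted p = 9.84e-06), and Spc25 fell by 1.50. Ndc80 itself and Spc24 fell too, with differences of -0.89 and -0.75. Ndc80 read 3.77, 4.42 and 4.43 in M(CSF1), so that replicate 1 stood low, and 3.36, 3.48 and 3.14 in M(CSF2). Its interval was wide, from -1.32 to -0.45, and the call (adjusted p = 0.00871) ended without M(CSF1) replicate 2 (-0.78, adjusted p = 0.0526).

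Among genes of the inner kinetochore, the layer that sits on centromeric chromatin, Cenpn fell by 2.23, from 6.32, 6.50 and 6.02 to 4.10, 4.26 and 3.78 (adjusted p = 3.23e-05). Cenpi was at least 1.59-fold lower and Cenph at least 1.57-fold lower. Cenpk lay at the floor in both groups (2.96, 3.04 and 3.12 against 2.73, 2.56 and 2.21). Its difference of -0.54 was called at adjusted p = 0.0179, with no fold, and the call was lost in 4 of the 6 leave-one-out fits. Those omitted replicates 1, 2 and 3 of M(CSF1), with differences of -0.58, -0.54 and -0.50 and adjusted p of 0.0527, 0.0754 and 0.0678, or replicate 2 of M(CSF2), with -0.57 and 0.0541.

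Cenpe, a kinesin that carries chromosomes to the spindle equator, went from 4.85, 4.59 and 4.79 to 2.80, 2.87 and 2.59, at least 2.62-fold lower (adjusted p = 7.12e-06). Cenpa, the histone H3 variant that marks the centromere, was not called. It read 5.38, 5.60 and 5.87 in M(CSF1) and 5.24, 5.41 and 5.19 in M(CSF2), with overlap between groups, and its difference was -0.34 (95% interval -0.64 to -0.04, adjusted p = 0.100). Without M(CSF1) replicate 1, the lowest of its group, the difference was -0.46 and called (adjusted p = 0.0408). Cenpf, a large protein of the outer kinetochore, was dim, at 3.31, 3.41 and 3.68 against 3.15, 3.16 and 3.16. Its groups did not overlap, but the difference of -0.31 was not called (95% interval -0.55 to -0.07, adjusted p = 0.0603). It was called without M(CSF1) replicate 1 (-0.39, adjusted p = 0.0375).

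Proteins that shape the spindle and split the cell fell in all 6 cases. Prc1, which bundles the antiparallel microtubules of the midzone, went from 5.56, 5.82 and 5.58 to 3.002, 2.96 and 2.69, at least 4.91-fold lower (adjusted p = 2.23e-06). Tpx2, which nucleates microtubules and activates Aurora A, fell by 1.67 from a mean of 7.20, and Nusap1, a microtubule bundler near chromosomes, was at least 1.88-fold lower. The cytokinesis genes had the lowest median of any role, -2.27. Anln (anillin), which anchors the contractile ring, went from 5.31, 5.47 and 5.16 to 2.91, 3.10 and 2.66 and was at least 3.88-fold lower. Racgap1, the partner of the Kif23 motor, and Ect2, the exchange factor that switches on RhoA at the midzone, fell as well (-2.27 and -2.01).

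Condensin, the ring that compacts chromosomes, fell in all 5 of its genes. Smc2, one of the pair of SMC subunits shared by condensin I and condensin II, went from 5.66, 5.34 and 5.33 to 2.99, 3.02 and 2.88, at least 4.25-fold lower (adjusted p = 2.79e-06). Its partner Smc4 fell by 1.12, from 5.76, 5.86 and 5.64 to 4.78, 4.50 and 4.62. The condensin I subunits Ncaph (-2.18) and Ncapd2 (-1.55) fell, and Ncapg was at least 1.95-fold lower. Of the 3 genes for subunits of condensin II alone, which were not in the list, Ncapd3 (-1.97) and Ncapg2 (-1.63) fell. Ncapg2 was at the floor in M(CSF2) and at least 2.06-fold lower. Ncaph2 gave -0.14 (not called).

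**Figure D2:**
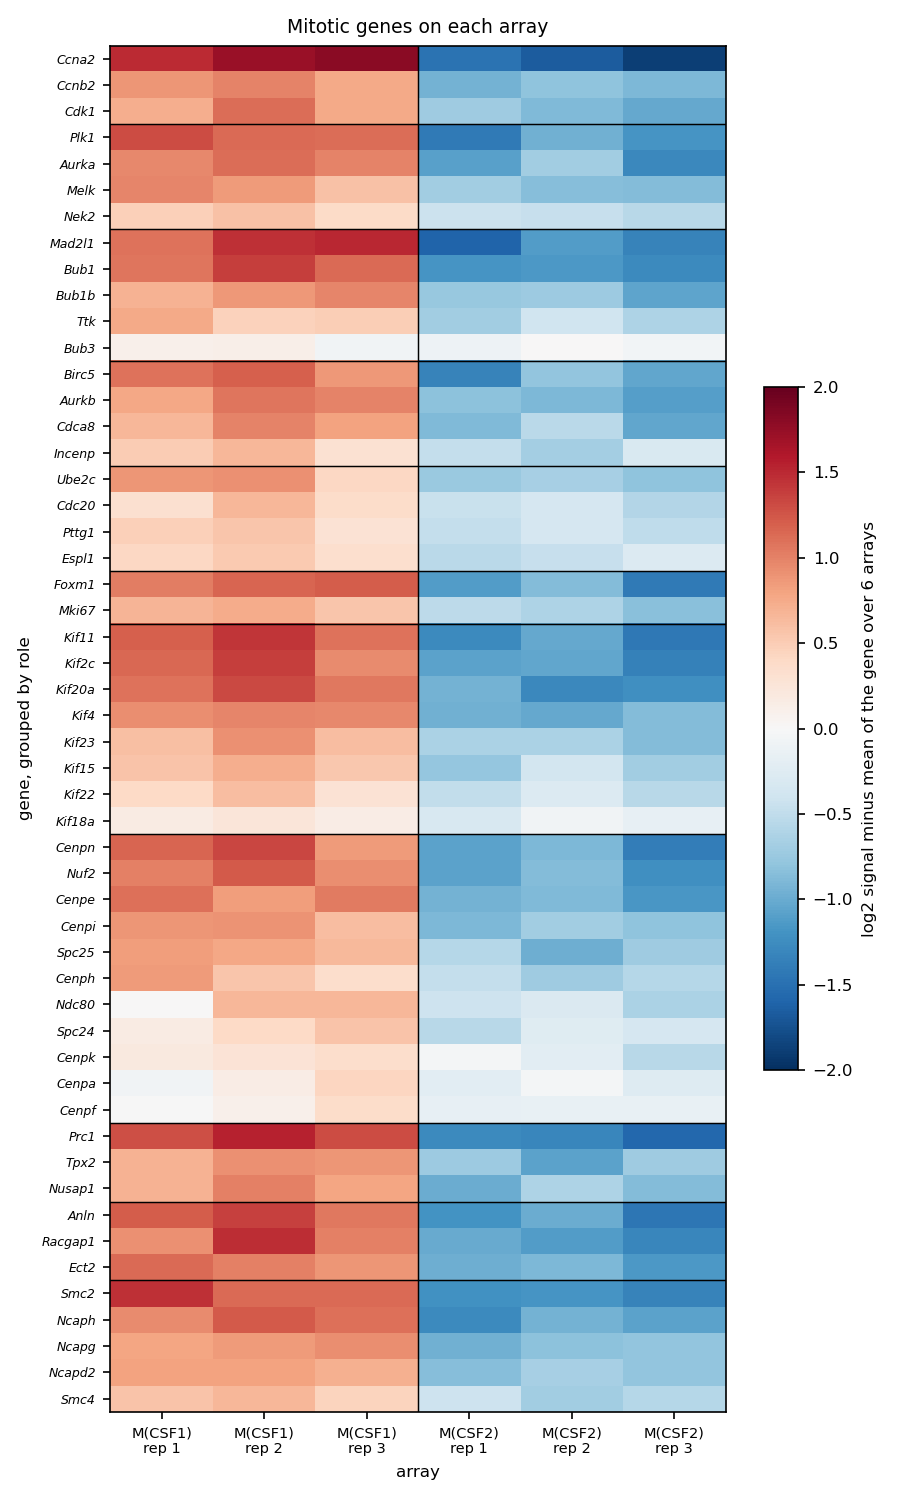
Log2 signal of each of the 52 genes on each of the 6 arrays, shown as the deviation from the gene's mean over the 6 arrays, with genes in rows grouped by role and arrays in columns. Red cells lie above and blue cells below that mean. The 3 M(CSF1) columns are red and the 3 M(CSF2) columns blue for nearly every gene, and Bub3, Kif18a, Cenpa and Cenpf are the palest rows.

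The members also shifted slightly together within a group. On M(CSF1) replicate 2, 44 of 52 members lay above their group mean, with a median deviation of 0.10, and on M(CSF2) replicate 2, 42 did, with a median of 0.10. On replicate 3 of each group the larger number lay below, 37 in M(CSF1) and 38 in M(CSF2), with medians of -0.09 and -0.08. Over all genes these array medians ran from -0.007 to 0.003. The shifts are small beside the group difference of -1.66. The labels do not say whether equal replicate numbers in both groups share mice or a preparation.

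The wider mitotic apparatus was described through 8 related lists, of which 149 measured genes were not members. Of these, 106 (71.1%) were called lower and 0 higher, with a median of -0.71. Over all genes 15.6% were called lower and 11.9% higher, with a median of 0.04. These all-gene shares are also the background for the list counts below. For 32 of the 149, all 3 M(CSF2) arrays lay at or below the floor, and genes are ordered below by raw difference. At the floor in M(CSF2), Cep55 was at least 4.27-fold lower, Zwilch 3.58-fold, Haus6 2.99-fold, Kntc1 2.41-fold and Stil 2.23-fold. The fixed lists mix genes that change through the cycle with subunits that all cells use, and the counts differed between them. Other mitotic motors, spindle and midbody proteins had 19 of 21 lower (median -1.33), led by Cep55, which works in the final cut between daughter cells (-2.26), the motor Kif18b (-2.02) and Iqgap3 (-1.96). Mitotic entry and exit regulators had 13 of 16 lower (median -0.93), led by the CDK subunit Cks1b (-2.52), Gtse1 (-1.68) and the cyclin F gene Ccnf (-1.57). Other centromere and kinetochore genes had 23 of 33 lower (median -0.81), led by Zwilch (-2.40) and Kntc1 (-1.82), parts of the complex that loads dynein, and the inner kinetochore gene Cenpo (-1.43).

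Cohesin, which holds sister chromatids together until separase cuts it, had 11 of 13 genes lower (median -0.94). The stabiliser Cdca5 (sororin) gave -1.95 and the ring subunit Smc3 -1.42, and Pds5b -1.35. Centrosome and spindle pole genes had 17 of 28 lower (median -0.51), led by Tacc3 (-2.03), the augmin subunit Haus6 (-1.90) and the centriole gene Stil (-1.63). The anaphase-promoting complex list had 9 of 17 lower (median -0.42). In it Fbxo5, the APC/C inhibitor EMI1, gave -1.79, the core subunit Cdc27 -1.51 and the enzyme Ube2s -1.26, while 8 genes were not called, among them the activator Fzr1 (-0.24) and the subunit Anapc10 (-0.10).

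Regulators of the E2F, MYB-MuvB and DREAM families had 12 of 19 genes lower and a median of -0.49. The largest falls were those of the repressor E2f8 (-1.78), of Mybl2, which encodes the B-MYB activator (-1.69), and of the retinoblastoma gene Rb1 (-1.39). The MuvB subunits were not uniform. Lin9 (-0.85) and Rbbp4 (-0.44) were called lower, but Lin9 was at the floor in M(CSF2) and at least 1.08-fold lower. Lin54 (-0.35), Lin52 (-0.21) and Lin37 (0.13) were not called. Of 6 measured CDK inhibitor genes, Cdkn2b (1.19) and Cdkn2a (0.56) rose, Cdkn2c fell (-0.93) and 3 were not called. Cdkn1a shares its probe set with another gene and was not analysed here.

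DNA replication genes, which act earlier in the cycle, had 46 of 49 genes lower and 0 higher, with a median of -1.26. The helicase subunit Mcm6 (-3.65), the ribonucleotide reductase subunit Rrm2 (-3.02) and the polymerase gene Pole (-2.53) led the list. The share called lower was thus alike in the replication and mitotic lists, at 93.9% and 94.2%. The difference between their medians was not tested.

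**Figure D3:**
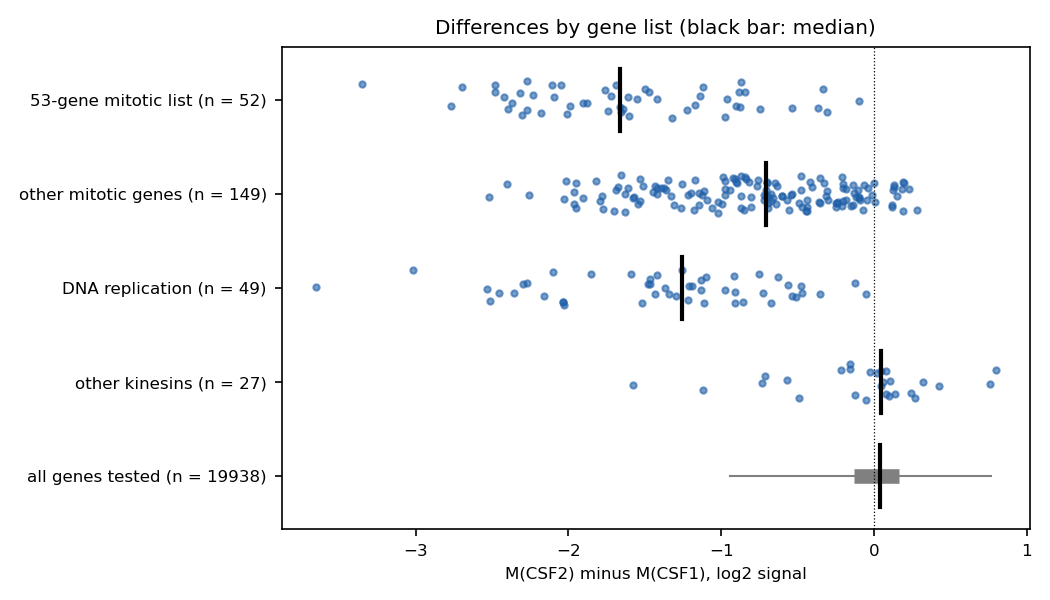
M(CSF2) minus M(CSF1) difference in log2 signal, 1 point per gene, for the mitotic list, 149 other mitotic genes, 49 DNA replication genes and 27 other kinesin genes, with the median as a black bar (vertical scatter is arbitrary). For all 19938 genes the thick bar spans the 25th to 75th and the thin bar the 5th to 95th percentile. The mitotic list's median lies at -1.66, that of the other kinesin genes at 0.04.

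The arrays and the cells behind these values were checked in brief. Arrays correlated at 0.995 to 0.997 within a group and at 0.954 to 0.959 between groups. Several macrophage genes were bright in both groups. Adgre1 (F4/80) had means of 11.88 and 10.70 in M(CSF1) and M(CSF2), Itgam 11.37 and 11.17 and Csf1r 9.81 and 10.41. Mertk was dimmer, at 6.08 and 5.70, and Cd163 was at the floor in both groups. Of the 10 macrophage markers, 3 were called lower (Fcgr1, Adgre1 and Lyz2), 3 higher (Csf1r, Cd68 and Cd14) and 4 were not called. The CSF2 receptor genes Csf2ra (1.26) and Csf2rb (3.62) rose. Markers of other cell types that could divide in a marrow culture moved as follows, with each list's signal summed on the linear scale. Progenitor markers had 2 of 12 higher (Gata2 and Kit) and 0 lower, summing to 165 to 184 in M(CSF1) and 308 to 338 in M(CSF2), with Cd34 and Ctsg at the floor in both groups. Lymphocyte markers had 2 of 10 lower (Cd79b and Cd4), summing to 257 to 298 and 135 to 144, with Cd3d, Cd3g and Ebf1 at the floor in both. Erythroid markers had 1 of 6 lower, summing to 233 to 282 and 104 to 107. That gene was Tfrc, the transferrin receptor that dividing cells in general use, and Klf1 and Alas2 were at the floor in both groups. Mast cell and basophil markers had 4 of 12 higher (536 to 621 in M(CSF2) against 116 to 139). These were Hdc (4.43), Gata2 and Kit, both also in the progenitor list, and Mcpt8, at the floor in both groups. Cpa3, Cma1 and Fcer1a were at the floor in both groups and not called. Neutrophil markers had 3 higher and 2 lower of 12 (3723 to 4548 against 3017 to 3273). The rises were Mmp8 (4.44), S100a8 (2.37) and Ltf, the last at the floor in both groups, and the falls Csf3r (-1.57) and Mmp9 (-0.90). Ly6g, Cxcr2, Ngp and Retnlg were at the floor in both groups and not called. Dendritic cell markers had 4 of 10 higher (7231 to 7888 against 196 to 212). Ccl17 and Itgax had the highest M(CSF2) means of that list, 12.33 and 10.84. The others called were Ccr7 and Clec9a, the latter at the floor in both groups. Zbtb46, Flt3, Batf3, Xcr1, Siglech and Cd209a were not called. Stromal markers had 2 higher (Dcn and Acta2) and 1 lower (Postn) of 10 (325 to 387 against 272 to 331). The part of these cell types in the fall of the mitotic genes was not tested.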

How the data were processed

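RNA of 3 M(CSF1) and 3 M(CSF2) samples was hybridised to 1-colour arrays. The authors deposited log2 values for 28941 probe sets, from 1.48 to 13.27. No source used here states the scale, and base 2 was inferred from that range. Per the submitters' processing notes, MAS5 was used; its version, the background correction and the normalization are not given in the sources used here. Array medians ran from 3.91 to 4.00. The number of arrays limits the precision.

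The platform annotation gave exactly 1 gene for 21789 probe sets; the others were left out. The brightest probe set by its mean over 6 arrays stood for a gene, which gave 19938 genes with no filter on dim genes. M(CSF2) minus M(CSF1) was fitted by lmFit and eBayes of limma 3.58.1, under R 4.3.3, as a 2-sided test, adjusted by Benjamini-Hochberg over all genes and called under 0.05. The procedure was tested on simulated data. Lists received no test of their own. Alternatives were other normalizations, dim-gene filters, probe set choices, variance models, a block for the replicate number, and fits without each array.

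The members and lists were chosen with earlier results of these data known. Named genes were all members, up to 3 called genes with the largest differences in each direction per related list, markers and the inducers' receptors. The genes Fzr1, Anapc10, Lin37, Lin52, Lin54, Ncaph2, Lin9 and Rbbp4 were chosen after their values were seen.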

Additional observations from a re-analysis of the deposited data

How the results depend on the processing

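No member changed direction in any of 16 alternatives, and 47 of 52 measured members kept their side of the threshold in every one in which they were tested. The exceptions among alternatives other than leaving out an array were Cenpk (adjusted p = 0.107), Kif18a (0.0549) and Ndc80 (0.0872), whose calls ended with ordinary least squares. Cenpf was called after quantile normalization (0.0124) and after centring on array medians (0.0258), and Cenpa after centring (0.0497). The number of members called lower fell from 49 to 32 when genes below the median signal were left out, because only 34 members were then tested. Leaving out 1 array at a time gave 46 to 50 members called lower, 0 higher, 39 to 41 at least 2-fold lower and a median of -1.74 to -1.60. Related genes called higher went from 0 to 5 after quantile normalization and from 0 to 1 in the leave-one-out fits, without M(CSF1) replicate 1. Counts over all genes stayed within 1.5 times those reported.

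With the replicate number as a block (replicate block), 49 members were again called lower. The deviations of same-numbered arrays correlated at 0.004, -0.044 and -0.253, and no array correlated best with its own number. With so few arrays a group, these correlations cannot tell whether same-numbered arrays share a preparation. Of 16 members at the floor in M(CSF2), 13 called ones and Cenpf, which was not called, have at most a lower bound on their fold, and Cenpk and Kif18a, at the floor in both groups, have none.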
